A study of Mus musculus with 8 samples.

Results

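The effect of a high-fat diet on the liver transcriptome of mice drinking arsenite was measured in the groups HFD+As and LFD+As, which hold 4 of the 8 arrays of the series (2 each) and were taken by sample title. All mice were male C57BL/6J. LFD+As mice ate a low-fat diet with 13% of calories from fat, HFD+As mice ate a high-fat diet with 42%, and both drank deionized water to which arsenite had been added (3 mg/L of inorganic arsenic). The groups LFD and HFD ate the same diets and drank deionized water without arsenite. Exposure is given as 10 weeks in the protocols and as 90 days in the source label. Each group had 10 mice (40 in all), and each array held liver RNA pooled from 5 mice, so every p-value measures the spread between pools and not between animals. With 2 arrays against 2, the smallest exact permutation p is 0.333, so single genes were tested with limma across all genes, with the spread estimated from all 8 arrays.

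The liver makes fatty acids from acetyl-CoA through acetyl-CoA carboxylase, fatty acid synthase, elongases and desaturases. Insulin and sugar switch these genes on through the transcription factors SREBP-1c and ChREBP, while dietary fat, and polyunsaturated fat above all, is known to lower them. Inorganic arsenic is methylated and cleared mainly by the liver, where it binds thiols and induces metallothioneins and antioxidant enzymes.

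Values are log2 signals, and differences are log2 fold changes, HFD+As minus LFD+As. The array medians lay between 7.08 and 7.18. Of the hepatocyte markers, 12 were tested, among them Alb and Apoa1, with mean signals from 12.4 to 14.4. Of 16 exocrine pancreas markers 6 passed the filter (7.0 to 7.82) and of 19 lymphocyte markers 7 did (6.98 to 7.93). Levels of different probes cannot be set against each other, so these values only show that the defining hepatocyte genes gave signal. Of 11963 genes tested, 1227 (10.3%) were called at an adjusted p under 0.05, 218 higher (1.82%) and 1009 lower (8.43%), and 3367 had an unadjusted p under 0.05. Lower calls made up 82.2% of calls on the deposited values, 71.7% after quantile normalization and 68.7% with arrays centred on their medians. Without HFD+As replicate 1 they made up 35.5% (20 higher, 11 lower), and without LFD+As replicate 2 52.9% (8 higher, 9 lower). Over all genes the median difference was -0.09. A change of at least 2-fold was reached by 15 of the genes called higher (0.125% of genes tested) and 17 of those called lower (0.142%).

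The calls rested on single pools. All 1227 genes kept their sign when any 1 array was left out, but the calls depended on which array was left out. There were 17 calls without LFD+As replicate 2, all among the 1227, and 31 without HFD+As replicate 1, of which 30 were. There were 471 without LFD+As replicate 1, of which 405 were among the 1227, and 1228 without HFD+As replicate 2, of which 797 were. Of the 114 called genes that follow from the naming rule, 12 were still called without LFD+As replicate 2 and 16 without HFD+As replicate 1. Only 12 genes were called whichever single array was left out: Chrna4, Raet1d, Ppard, Camk1d, Rhbg and Pstpip2 fell, and Snord57, Snord118, Snora74a, Rprl2, n-R5s136 and the predicted gene Gm16381 rose. Outside HFD+As, Gm16381 measured 6.80 to 6.99, near the lowest mean tested of 6.98. It passed the filter through its HFD+As values of 7.99 and 7.85.

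The promoters of lipogenic genes and of Cyp26a1 are shown first, because the genes of fatty acid synthesis fell as a group and Cyp26a1 was among the largest falls. The windows are the 250 bases before the RefSeq start (GRCm38.p6), and 6 motifs were searched on both strands: the sterol regulatory element TCACNCCAC, the E-box CACGTG, the CCAAT box, the GC box GGGCGG, the direct repeat of retinoic acid receptors (AGTTCA and AGTTCA with any 5 bases between) and the direct repeat of PPARs (AGGTCA and AGGTCA with any 1 base between). Acacb lies at chr5:114165268-114165517 (plus strand), Acss2 at chr2:155517793-155518042 (plus), Fasn at chr11:120824548-120824797 (minus), Insig1 at chr5:28071162-28071411 (plus) and Cyp26a1 at chr19:37697558-37697807 (plus). Capitals mark matches to the first 4 motifs in the lipogenic genes, and the retinoic acid repeat and GC box in Cyp26a1.

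Acacb: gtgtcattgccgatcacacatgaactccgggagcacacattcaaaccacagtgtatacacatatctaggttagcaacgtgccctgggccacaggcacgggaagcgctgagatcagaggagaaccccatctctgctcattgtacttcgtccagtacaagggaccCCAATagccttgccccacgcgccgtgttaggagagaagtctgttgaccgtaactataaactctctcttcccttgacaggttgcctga
Acss2: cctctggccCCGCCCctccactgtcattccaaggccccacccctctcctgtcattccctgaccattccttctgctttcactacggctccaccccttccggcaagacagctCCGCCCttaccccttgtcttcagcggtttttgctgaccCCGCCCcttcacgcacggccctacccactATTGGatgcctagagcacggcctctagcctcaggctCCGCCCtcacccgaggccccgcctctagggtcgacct
Fasn: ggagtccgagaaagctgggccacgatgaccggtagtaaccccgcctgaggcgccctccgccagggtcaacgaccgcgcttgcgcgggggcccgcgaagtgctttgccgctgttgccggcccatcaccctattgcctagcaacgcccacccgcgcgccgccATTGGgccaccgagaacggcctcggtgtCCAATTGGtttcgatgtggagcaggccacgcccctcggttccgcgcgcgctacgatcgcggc
Insig1: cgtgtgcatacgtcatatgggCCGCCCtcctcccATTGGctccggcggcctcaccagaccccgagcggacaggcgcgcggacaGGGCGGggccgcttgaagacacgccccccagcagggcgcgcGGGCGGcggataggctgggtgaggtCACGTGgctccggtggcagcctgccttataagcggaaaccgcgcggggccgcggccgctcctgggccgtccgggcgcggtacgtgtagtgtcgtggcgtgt
Cyp26a1: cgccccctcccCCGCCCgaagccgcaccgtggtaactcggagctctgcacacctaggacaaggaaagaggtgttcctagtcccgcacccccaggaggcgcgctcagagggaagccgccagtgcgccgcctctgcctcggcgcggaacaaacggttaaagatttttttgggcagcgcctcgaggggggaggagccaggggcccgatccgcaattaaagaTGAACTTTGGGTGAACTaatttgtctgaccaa

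Of the 13 genes of fatty acid synthesis and its regulation that were called lower, 11 had a window. A CCAAT box was found in 7 of the 11 (33.8% of all 32851 windows), a GC box in 7 (32.7%), an E-box in 4 (6.02%) and a sterol regulatory element in 1, Mlxipl (1.05%). The retinoic acid receptor repeat (0.0213%) and the PPAR repeat (0.0335%) were found in none of the 11, and genes with several windows were counted if any held a match. In Fasn, 2 of the 3 CCAAT boxes overlap. The window of Cyp26a1 holds the retinoic acid repeat from 32 to 16 bases before the start, 1 of 7 windows in the table that do. For each motif only the letters given above were searched, and other forms of these elements were not. Such matches describe letters and not sites.

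RNA signals of fatty acid synthesis genes were lower in HFD+As livers. Of 17 genes tested, 9 were called lower (8.43% of all genes) and 0 higher, all 17 differences were negative, and the median was -0.66 against -0.09 over all genes. Acacb, the mitochondrial acetyl-CoA carboxylase, measured 10.00 and 10.79 in LFD+As and 8.99 and 9.30 in HFD+As. It fell by 1.25 on the log2 scale (SE 0.197, adjusted p = 0.00954), a 2.38-fold change, with no overlap between the groups, as for 59.4% of all genes (15.6% higher, 43.8% lower). Acss2, which makes acetyl-CoA from acetate, measured 11.99 and 12.58 in LFD+As and 10.97 and 11.41 in HFD+As, a difference of -1.09 (SE 0.180, adjusted p = 0.0119). Scd1, the main hepatic stearoyl-CoA desaturase, measured 13.75 and 14.04 in LFD+As and 13.14 and 12.97 in HFD+As, a difference of -0.84 (SE 0.126, adjusted p = 0.00736). In each of these genes both HFD+As pools lay below both LFD+As pools. The call of Scd1 was lost only without LFD+As replicate 2, those of Acacb and Acss2 also without HFD+As replicate 1.

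Other steps were called lower too. Fasn, fatty acid synthase itself, measured 12.32 and 12.85 in LFD+As and 11.72 and 12.07 in HFD+As, a difference of -0.69 (SE 0.174, adjusted p = 0.031). Acly, which supplies cytosolic acetyl-CoA from citrate, fell from 11.21 and 11.91 to 10.55 and 11.02, by 0.77. The elongases Elovl6 and Elovl5 fell by 0.78 and 0.68, and the desaturases Fads1 and Fads2 by 0.73 and 0.45. Acaca, the cytosolic carboxylase, was not called (difference -0.25, adjusted p = 0.399), and its arrays overlapped between the groups. Me1, Thrsp, Scd2, Aacs, Acsl5, Slc25a1 and Mid1ip1 were not called either, with differences from -0.66 to -0.09. Without LFD+As replicate 2 the list had 0 calls and a median of -0.42, and without HFD+As replicate 1 it had 1 call and a median of -0.49.

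Regulators of this program were called as well. Among 14 regulators and sugar-use genes tested, 4 were called lower (28.6%, against 8.43% of all genes) and 1 higher (7.14%, against 1.82%). Mlxipl, which encodes ChREBP, measured 10.71 and 11.12 in LFD+As and 10.01 and 10.02 in HFD+As, a difference of -0.90 (SE 0.163, adjusted p = 0.0147). Srebf1, which encodes SREBP-1, measured 10.32 and 10.71 in LFD+As and 9.79 and 9.90 in HFD+As, a difference of -0.67 (SE 0.139, adjusted p = 0.0198). Scap, the escort protein of SREBPs, fell by 0.58, and Insig1, its retention partner, fell by 0.55. Nr1h3, the oxysterol receptor LXR alpha, rose by 0.42 (adjusted p = 0.0475). Pklr, Gckr, Pgd, Slc2a2 and Insig2 had differences between -0.42 and -0.22 and were not called, and Khk, Tkfc, Mlx and Pfkl lay between -0.02 and 0.23. When either LFD+As replicate 2 or HFD+As replicate 1 was left out, 0 of the 14 were called.

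**Figure D1:**
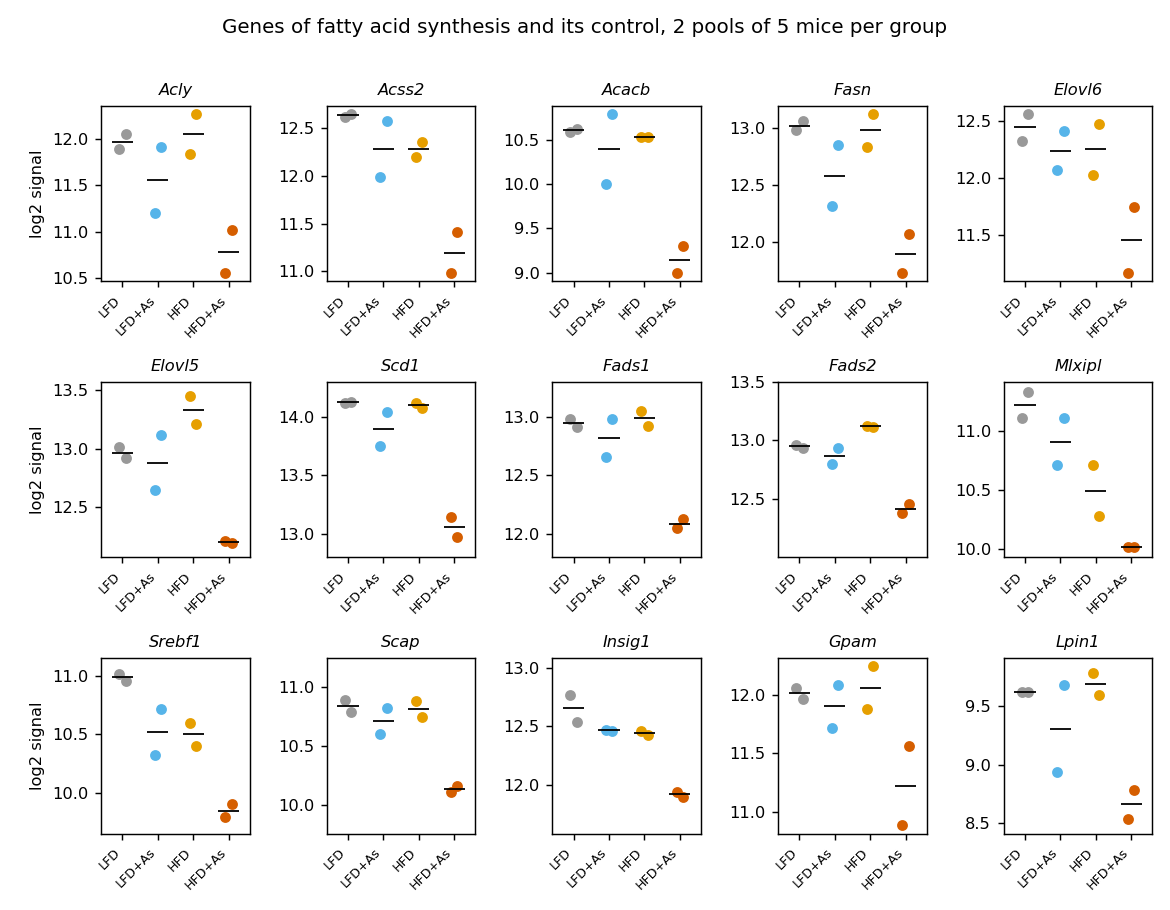
Log2 signal of 15 genes of fatty acid synthesis, its regulation and triglyceride assembly in every array (points, 2 pools of 5 mice per group) with group means (lines). All 15 genes were called lower, so their fall follows from the choice of genes, and uncalled members such as Acaca are not shown. Both HFD+As arrays lie below both LFD+As arrays in all 15 panels, as they do for 43.8% of all genes tested. For Acacb, for example, HFD+As is at 8.99 and 9.30 against 10.00 and 10.79.

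On plain water the same diet difference was small for these genes. The 4 arrays of HFD and LFD share no sample with those above. The median of the 17 fatty acid synthesis genes was -0.04, 0 were called, and 7 differences were positive. Scd1 measured 14.12 in both LFD pools and 14.12 and 14.07 in the HFD pools. Acacb differed by -0.07 and Fasn by -0.04. Mlxipl and Srebf1 had lower values in HFD too, by -0.73 and -0.49, without passing the test (adjusted p = 0.0813 and 0.195). The difference between the diet effects, the interaction, was -1.18 for Acacb (unadjusted p = 0.000909, adjusted p = 0.170) and -0.81 for Scd1 (unadjusted p = 0.000516, adjusted p = 0.149), so neither passed the test over all genes.

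Triglyceride and cholesterol synthesis had calls as well, in cholesterol synthesis at a share near that of all genes. In triglyceride assembly 3 of 11 genes were called lower (27.3%, against 8.43% of all genes). They were Gpam, the mitochondrial glycerol-3-phosphate acyltransferase (-0.68), Lpin1, a phosphatidate phosphatase (-0.65), and Gpat4, an acyltransferase of the endoplasmic reticulum (-0.46). All 3 lost the call with the gene-span trend described further on removed (adjusted p = 0.0959, 0.114 and 0.0882). All 19 cholesterol synthesis genes tested had negative differences, as did 65.6% of all genes. Their median was -0.29, and 2 were called lower (10.5% against 8.43% of all genes). These were Sqle, squalene epoxidase, and Stard4, a sterol carrier, which fell by 0.42. Sqle measured 11.11 and 10.90 in LFD+As and 10.55 and 10.61 in HFD+As. With the span trend removed Sqle lost its call (adjusted p = 0.0605) and Stard4 kept it (adjusted p = 0.0496). The median of the 19 was -0.32 without LFD+As replicate 2 and -0.23 without HFD+As replicate 1. None of 23 lipid droplet and uptake genes was called. Among them Cidec differed by 0.01 and Pparg by -0.05, with overlapping arrays. Angptl4, a lipoprotein lipase inhibitor and PPAR target, rose from 8.07 and 8.19 to 8.88 and 8.59, by 0.60 (adjusted p = 0.0223). It was also called on plain water, at 1.13 (adjusted p = 0.00417).

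Genes that set fuel choice were among the falls. Pdk4, which blocks pyruvate oxidation, measured 9.14 and 9.90 in LFD+As and 8.48 and 8.04 in HFD+As, a difference of -1.26 (SE 0.251, adjusted p = 0.0179). Ppargc1a, a coactivator of oxidative metabolism and gluconeogenesis, fell by 0.69, and Acot2, a mitochondrial thioesterase, by 0.42. With Angptl4 these were the only calls among 35 fatty acid oxidation genes, a share near that of all genes (8.57% lower, against 8.43%). With the span trend removed Ppargc1a lost its call (adjusted p = 0.0899), while Pdk4 and Acot2 kept theirs (adjusted p = 0.0305 and 0.0383). Cpt1a, the carnitine acyltransferase that admits fatty acids to mitochondria, differed by -0.30 (adjusted p = 0.139). In insulin signalling and gluconeogenesis 7 of 26 genes were called lower (26.9%, against 8.43% of all genes) and 0 higher. They were Gsk3b (-0.69), the insulin receptor Insr (-0.63), Foxo3, Crtc2, Foxo1, Pik3r1 and Irs1. With the span trend removed, 1 of the 7, Gsk3b, was still called. The triglyceride and insulin lists had 0 calls each without LFD+As replicate 2, and 0 each without HFD+As replicate 1.

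Several of the largest falls lie outside lipid synthesis. Chrna4, a nicotinic acetylcholine receptor subunit, measured 9.20 and 10.21 in LFD+As and 7.68 and 7.85 in HFD+As, a difference of -1.94 (SE 0.229, adjusted p = 0.00207). Raet1d, a ligand of the natural killer receptor NKG2D, measured 10.52 and 11.33 in LFD+As and 9.26 and 8.90 in HFD+As, a difference of -1.85 (SE 0.217, adjusted p = 0.00207). Ppard, the nuclear receptor PPAR delta, measured 10.16 and 10.29 in LFD+As and 8.57 and 8.60 in HFD+As, a difference of -1.64 (SE 0.196, adjusted p = 0.00207). In all 3 genes the groups were separated by more than 1 unit on the log2 scale. On plain water they diverged: Chrna4 differed by -0.19 and Ppard by 0.14, neither called, whereas Raet1d fell by 1.63 (adjusted p = 0.00624). Camk1d, a calmodulin kinase, fell by 1.24, and Pstpip2, an adaptor of the actin cytoskeleton in myeloid cells, by 1.09. Mindy2, a deubiquitinase, fell by 1.07.

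Retinoid genes held another large fall. Cyp26a1, the retinoic acid hydroxylase whose promoter is shown above, measured 10.40 and 11.54 in LFD+As and 9.50 and 9.19 in HFD+As, a difference of -1.63 (SE 0.259, adjusted p = 0.00981), and fell by 2.28 on plain water as well (adjusted p = 0.00417). Rdh11, a retinal reductase, fell by 0.72, and Rarb, a retinoic acid receptor, by 0.54, a call lost with the span trend removed (adjusted p = 0.179). These 3 were 15% of the 20 retinoid genes tested, against 8.43% of all genes called lower, and the other 17 were not called. The median of the 20 was -0.23, against -0.17 without LFD+As replicate 2 and -0.21 without HFD+As replicate 1. Bcl6, a transcriptional repressor under growth hormone control, measured 9.54 and 9.95 in LFD+As and 9.05 and 8.05 in HFD+As, a difference of -1.19 (adjusted p = 0.0220). On plain water it differed by 0.77 in the other direction, not called, with 8.53 and 8.39 in LFD. Rhbg, an ammonium transporter of pericentral hepatocytes, measured 10.55 and 10.87 in LFD+As and 9.29 and 9.75 in HFD+As, a difference of -1.19 (SE 0.162, adjusted p = 0.00574). Lgr5 and Rnf43, both Wnt pathway genes of pericentral hepatocytes, fell by 0.48 and 0.44. In all, 3 of 17 pericentral genes were called lower (17.6%, against 8.43% of all genes), and with the span trend removed only Rhbg was, with adjusted p = 0.134 for Lgr5 and 0.117 for Rnf43.

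**Figure D2:**
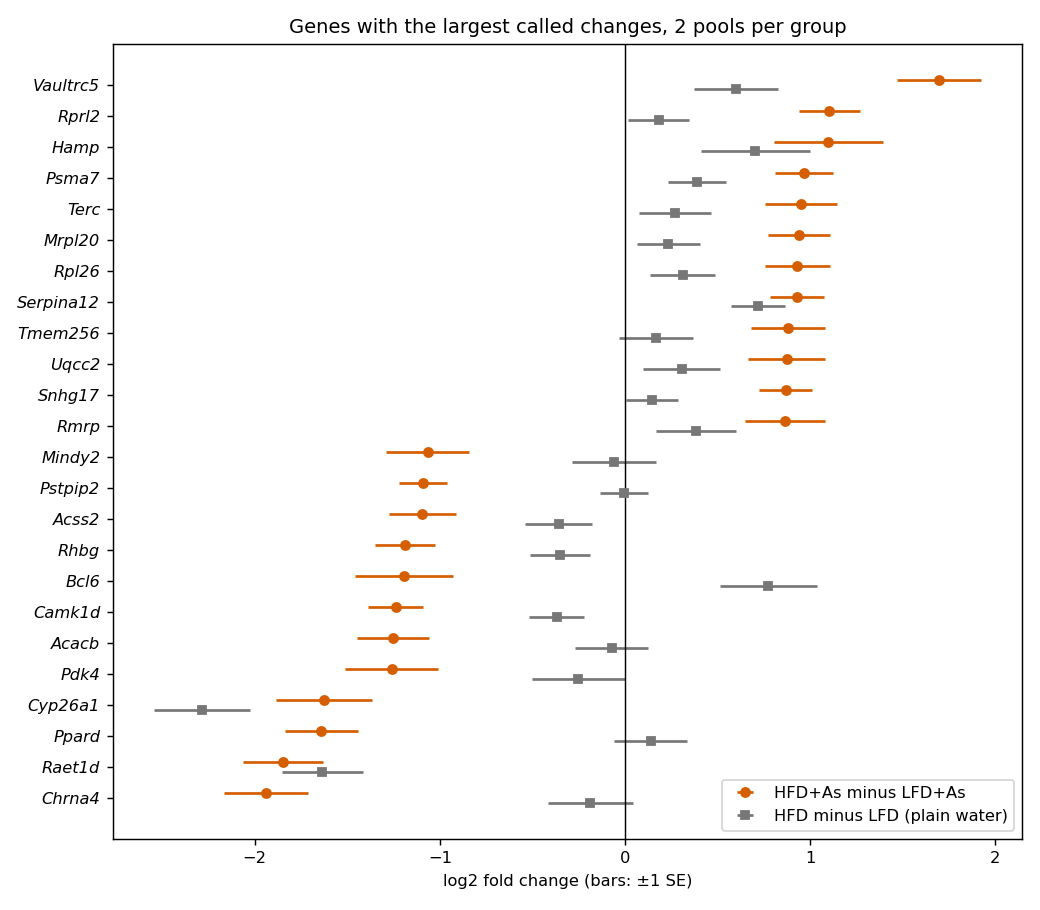
Log2 fold changes with bars of 1 SE for the 12 largest rises and 12 largest falls among called genes with non-overlapping arrays, leaving out small nucleolar RNAs and predicted genes (some of which rose more, such as Snord57 by 2.21 and Gm16381 by 1.01), HFD+As minus LFD+As (circles), beside HFD minus LFD on plain water (squares). Chrna4 and Ppard lie at -1.94 and -1.64 under arsenite and at -0.19 and 0.14 on plain water, while Raet1d and Cyp26a1 are low in both comparisons.

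The rises were led by small RNAs and by short genes of protein synthesis and breakdown. Vaultrc5, a vault RNA, measured 8.36 and 8.51 in LFD+As and 10.44 and 9.82 in HFD+As, a difference of 1.70 (SE 0.226, adjusted p = 0.00573). The ribonuclease RNAs Rprl2 and Rmrp rose by 1.10 and 0.86, and Terc, the telomerase RNA, by 0.95. With the span trend removed Rprl2 was still called (adjusted p = 0.0379), while Rmrp and Terc were not (adjusted p = 0.180 and 0.0819). Of 38 small nucleolar RNAs tested, 23 were called higher (1.82% of all genes) and 0 lower, with a median of 0.82. Their list was chosen with earlier results of these data known. Snord57 measured 7.52 and 7.55 in LFD+As and 10.31 and 9.18 in HFD+As, a 4.63-fold rise (log2 2.21, SE 0.245, adjusted p = 0.00207). Snord118, the U8 RNA needed for large-subunit ribosomal RNA processing, rose by 2.06. Most of these RNAs lie inside introns of host genes, and signal from host transcripts cannot be told apart from theirs here. Leaving out LFD+As replicate 2 left 3 of the 38 called and leaving out HFD+As replicate 1 left 10.

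Among cytosolic ribosomal proteins 23 of 57 were called higher (40.4%, against 1.82% of all genes) and 0 lower. All 57 differences were positive, and the median was 0.36. Rpl26 measured 9.92 and 9.81 in LFD+As and 10.97 and 10.63 in HFD+As, a difference of 0.93 (SE 0.175, adjusted p = 0.0163). Many pseudogenes resemble these genes, so their single values are uncertain. The ribosomal protein lists were also chosen with earlier results of these data known. A cytosine followed by pyrimidines over the first 5 bases of the RefSeq start was found for 10 of 45 ribosomal protein genes with a window (22.2%, against 2.51% of all windows), and for 2 of 17 called higher against 8 of 28 not called. A gene was counted if any of its windows matched, while the 2.51% counts single windows. These shares were not tested against each other, and RefSeq starts were not checked against measured starts. Mitochondrial ribosomal proteins had 15 of 76 called higher (19.7%, against 1.82% of all genes), led by Mrpl20 (0.94). Of 33 proteasome subunits 5 were called higher (15.2%, against the same 1.82%), led by Psma7, which went from 9.64 and 9.25 to 10.37 and 10.45. Oxidative phosphorylation had 5 of 68 called higher (7.35%, against 1.82%), led by Atp5l (0.76), and 1 lower (1.47%, against 8.43%), Sdha (-0.50). Each of these 4 lists had 0 calls when either LFD+As replicate 2 or HFD+As replicate 1 was left out.

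Large chromatin and transcription regulators, a list chosen with earlier results of these data known, fell. All 33 tested had negative differences and non-overlapping arrays, against 43.8% of all genes with lower and non-overlapping arrays. Of the 33, 27 were called lower (81.8%, against 8.43% of all genes), with a median of -0.59. Kmt2d, a histone methyltransferase, measured 8.64 and 8.67 in LFD+As and 7.64 and 7.92 in HFD+As, a difference of -0.88 (SE 0.161, adjusted p = 0.0152). Ep300, a histone acetyltransferase, fell by 0.86, and Tet2, a methylcytosine dioxygenase, by 0.82. The list had 0 calls without LFD+As replicate 2 and 1 without HFD+As replicate 1.

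The direction of change followed the length of the gene. The rank correlation of the difference with the genomic span of the gene was -0.449 over 11937 genes, which are not independent, and -0.144 on plain water. Genes were split into 5 equal classes by span. In the shortest class, of at most 6.78 kb, 156 were called higher and 38 lower, and in the longest, from 64.3 kb, 0 were called higher and 475 lower. The same correlation of each array's deviation from the mean was -0.454 and -0.293 in the HFD+As arrays and 0.221 and 0.346 in the LFD+As arrays, and in the plain water arrays it ranged from -0.137 to 0.342. The median span was 94.8 kb for the chromatin list, 41.5 kb for fatty acid synthesis, 3.27 kb for cytosolic ribosomal proteins and 0.102 kb for small nucleolar RNAs, against 21.4 kb for all genes.

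With the span trend removed from each array, 432 genes were called (3.61%), 49 higher (0.41%) and 383 lower (3.20%), and 391 of them were among the 1227. Fatty acid synthesis then had 6 of 17 called lower with a median of -0.64, the lipogenic regulators 4 of 14 lower, and the chromatin list 11 of 33 lower with a median of -0.43. Small nucleolar RNAs had 5 of 38 called higher and a median of 0.39 in place of 0.82, and cytosolic ribosomal proteins 5 of 57 and a median of 0.21 in place of 0.36. Mitochondrial ribosomal proteins had 4 of 76 called higher, proteasome subunits 3 of 33, and oxidative phosphorylation 3 of 68 higher and 1 lower. Of the 12 genes called without any 1 array, 11 were still called, all but n-R5s136. What sets the span trend was not tested.

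**Figure D3:**
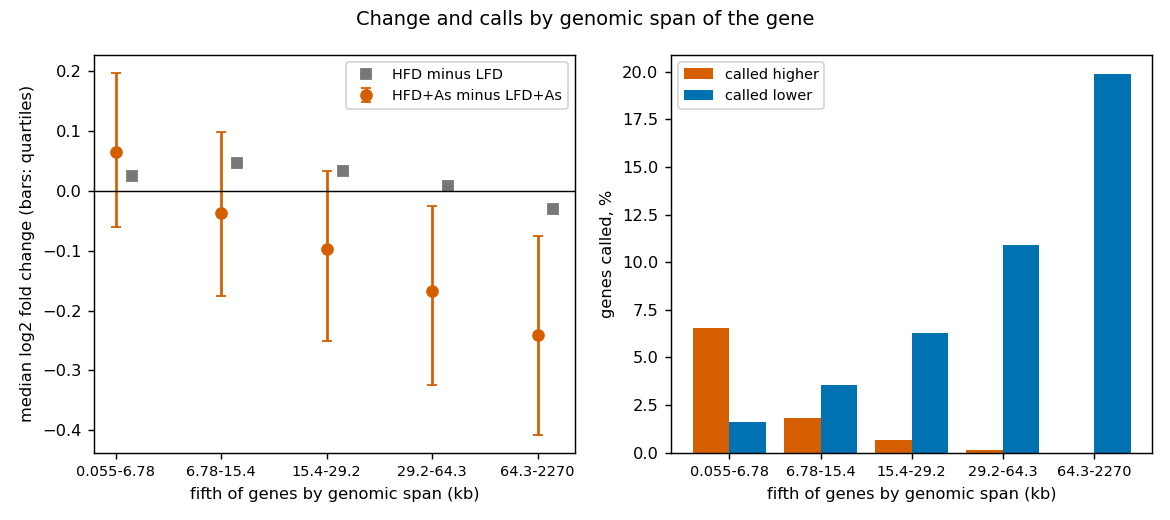
Left, median log2 fold change in 5 equal classes of genomic span (kb), with quartile bars for HFD+As minus LFD+As (circles) and medians for HFD minus LFD (squares). Right, percent of genes called higher or lower in HFD+As, where lower calls go from 1.59% in the shortest class to 19.9% in the longest and higher calls from 6.53% to 0%.

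Inflammatory and metal-response genes that rose with the high-fat diet on plain water did not pass the test under arsenite. From the acute phase, chemokine and metal lists 16 genes were called in HFD against LFD, with rises from 0.73 to 4.0, and 0 of these 16 were called in HFD+As against LFD+As, where differences ran from -0.41 to 0.94 and arrays overlapped for 13 of 16. With 10.3% of all genes called, 0 of 16 is near the share of all genes; 59.4% of all genes had arrays that did not overlap. Saa1, a serum amyloid of the acute phase, measured 5.04 and 7.51 in LFD, 10.08 and 10.48 in HFD, 10.07 and 8.66 in LFD+As, and 9.07 and 8.88 in HFD+As. The 3 groups other than LFD were thus all above both LFD pools. Lcn2, an iron-trapping acute phase protein, measured 9.05 and 10.28 in LFD, 12.49 and 12.97 in HFD, 12.55 and 11.40 in LFD+As, and 11.57 and 12.06 in HFD+As. Mt2, a metallothionein, measured 10.09 and 9.59 in LFD, 12.74 and 12.78 in HFD, 13.24 and 11.09 in LFD+As, and 13.43 and 12.51 in HFD+As. The LFD+As pools differed by over 2 units for this gene, so its difference of 0.80 had a wide error (SE 0.475, adjusted p = 0.295).

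Because these 16 genes were chosen by the plain water comparison, the interaction is a description for them: it was negative for all 16, with adjusted p from 0.0591 to 0.289. The plain water comparison had 55 calls (0.46%), 41 higher (0.343%) and 14 lower (0.117%), and 0 without LFD replicate 1. The interaction test of limma gave 0 calls over all genes, while 1659 genes had an unadjusted p under 0.05. The smallest unadjusted p belonged to Chrm3, Slc10a2 and Atp11a, at an adjusted p of 0.0591 each, with interactions of -1.38, -1.34 and -1.43. Slc10a2, the apical bile acid transporter, measured 9.53 and 9.91 in LFD+As and 8.60 and 8.90 in HFD+As, with 9.49 and 9.44 in LFD and 9.85 and 9.82 in HFD. Mt1 differed by 0.94 (adjusted p = 0.128), Hmox1 by 0.24 and Nqo1 by 0.82 (adjusted p = 0.0878) between HFD+As and LFD+As. As3mt, the arsenic methyltransferase, differed by -0.34 (adjusted p = 0.185) and its arrays overlapped.

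**Figure D4:**
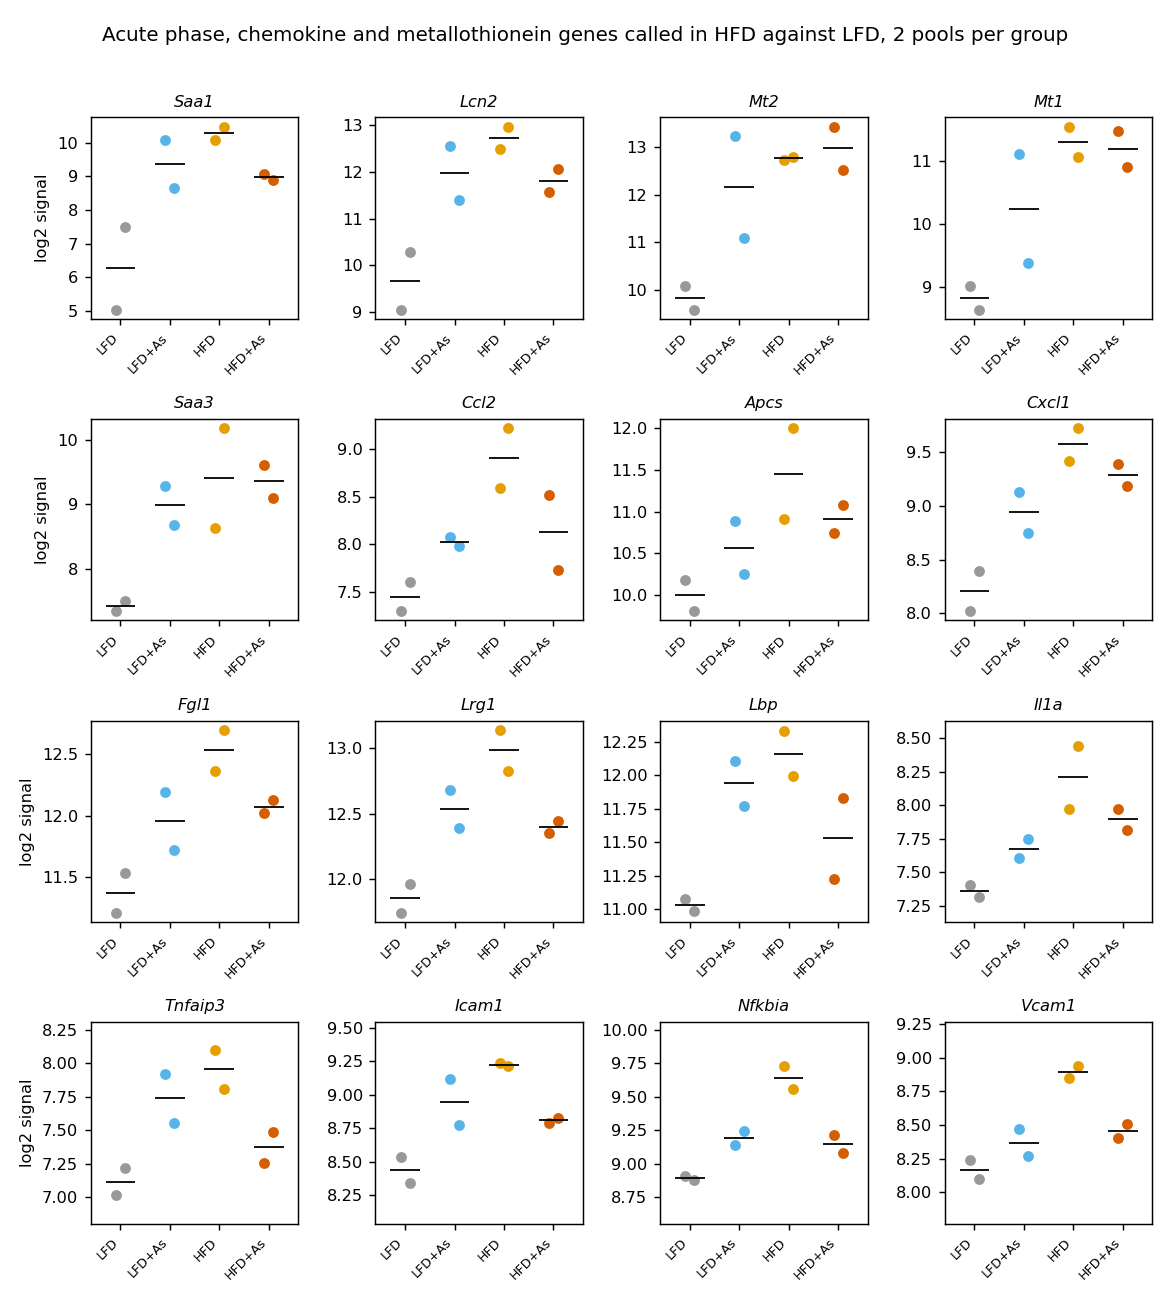
Log2 signal in every array (points) with group means (lines) for the 16 acute phase, chemokine and metal-response genes called in HFD against LFD. HFD lies above LFD in every panel by the choice of genes, and 13 of the 16 have overlapping LFD+As and HFD+As arrays.

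Hamp, the iron hormone hepcidin, was the only acute phase gene called of 28. That is 3.57%, against 1.82% of all genes called higher and 10.3% called in either direction. Hamp rose from 11.68 and 11.03 to 13.04 and 11.87, by 1.10 (adjusted p = 0.0368). Its difference lay between 0.51 and 1.68 when 1 array was left out, and the call was lost with the span trend removed (adjusted p = 0.0806). Ireb2, an iron regulatory protein, fell by 0.57 (adjusted p = 0.0564 with the trend removed). Hamp and Ireb2 were the only calls among 20 iron genes, 5% higher and 5% lower, against 1.82% and 8.43% of all genes. Complement and coagulation had 6 of 31 called lower (19.4%), among them C8a (-0.59), Masp1 (-0.51), F5 (-0.50) and Hc (-0.50), and amino acid catabolism 5 of 31 (16.1%), among them Gpt2 (-0.59) and the histidine ammonia-lyase Hal (-0.59). In the cell cycle list 4 of 16 (25%) were called lower: Cdk6 (-0.81), Mcm6 (-0.74), Ccnb2 (-0.56) and Ccnd1 (-0.54). These shares stand against 8.43% of all genes. With the span trend removed, calls went from 6 to 1 in the complement list, where C8a, Masp1, F5 and Hc lost theirs, and from 5 to 2 in the amino acid list, with Gpt2 and Hal, while the 4 cell cycle genes were called. Without LFD+As replicate 2 the complement, amino acid and cell cycle lists had 0 calls each, as they did without HFD+As replicate 1. Of the arsenic methylation and one-carbon genes 2 of 24 were called lower, the aquaporin Aqp9 (-0.46) and the methionine synthase Mtr (-0.43), which is 8.33% against 8.43% of all genes. Both calls were lost with the span trend removed (adjusted p = 0.0990 and 0.136).

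Markers of other liver cells moved in part. For sinusoidal endothelium 7 of 18 markers were called lower (38.9%, against 8.43% of all genes), with a median of -0.43. They were led by the scavenger receptor Stab2 (9.24 and 9.50 in LFD+As, 8.60 and 8.59 in HFD+As). In pooled tissue, fewer cells of a type and less RNA per cell cannot be told apart. With the span trend removed, 2 of the 18 were called. Leaving out LFD+As replicate 2 or HFD+As replicate 1 left 0 calls in this list. Among 18 macrophage markers 1 was called higher, Tyrobp (0.71), and 1 lower, Mpeg1 (-0.55). That is 5.56% in each direction, against 1.82% higher and 8.43% lower of all genes. With the span trend removed Tyrobp lost its call (adjusted p = 0.102) and Mpeg1 kept it (adjusted p = 0.0364). Of 12 neutrophil markers only 2 passed the filter. S100a9 was called higher (0.64), at signals from 6.93 to 7.62, near the lowest mean tested of 6.98, and its LFD+As mean was 6.96. The other marker differed by 0.19 and was not called. The part of these cells in the other results was not tested.

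**Figure D5:**
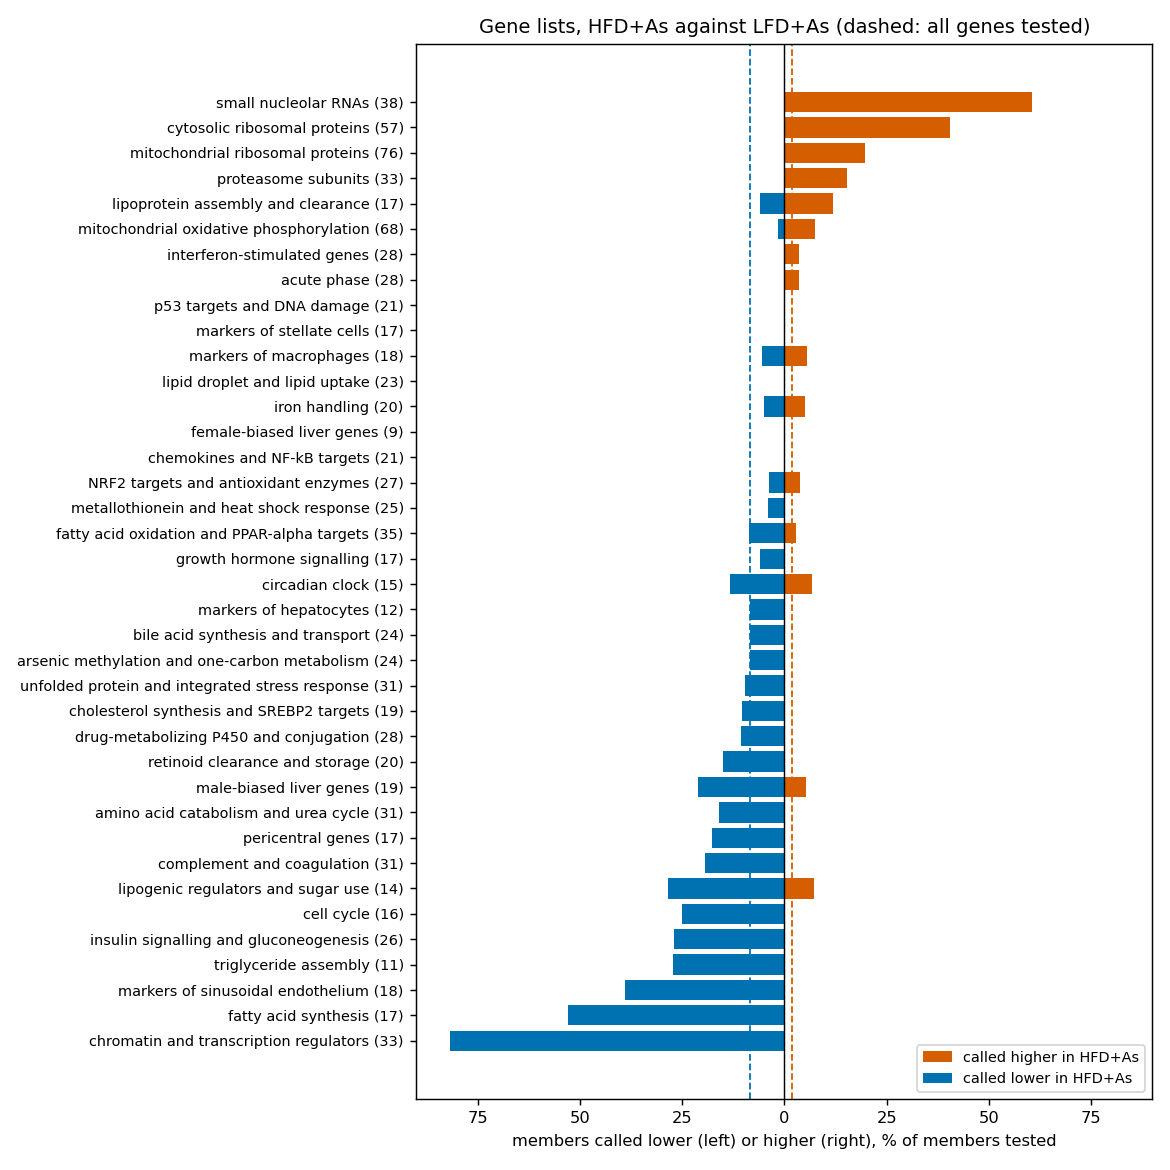
Percent of tested members called lower (left) or higher (right) in HFD+As against LFD+As for gene lists with at least 9 members tested (number in brackets), with dashed lines at the shares of all genes, 8.43% and 1.82%. Chromatin regulators (27 of 33) and fatty acid synthesis (9 of 17) have the highest lower shares, small nucleolar RNAs (23 of 38) and cytosolic ribosomal proteins (23 of 57) the highest higher shares. Lists were chosen with earlier results of these data known.

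The diet differences with and without arsenite were related across genes (Pearson r 0.352, Spearman rho 0.313 over 11963 genes, which are not independent). Of the 1009 genes called lower under arsenite, 780 (77.3%) had a negative difference on plain water, against 46.7% of all genes, and of the 218 called higher, 204 (93.6%) had a positive one, against 53.3%. These genes were chosen by their difference under arsenite, and sizes were smaller on plain water: genes called lower had a median of -0.54 under arsenite and -0.11 on plain water, and genes called higher had 0.57 and 0.28. Both comparisons called 7 genes, 0.57% of the calls under arsenite and 12.7% of those on plain water, and 6 of them had the same sign.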

How the data were processed

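Liver RNA of pools of 5 mice was hybridized to 8 Affymetrix Mouse Gene 1.0 ST arrays. The deposited values are log2 signals of the authors for 35556 transcript clusters; the submitters' processing notes name Affymetrix Expression Console 1.0, and the normalization and genome build are not given in the sources used here. Arrays have no read depth, and their number limits the precision. Clusters with exactly 1 symbol (21789; 1621 had several and 12146 none) were reduced to the cluster with the highest mean per gene, giving 19938 genes, and the 60% with the highest means (11963) were tested. limma 3.58.1 in R 4.3.3 fitted 4 group means to the 8 arrays without a replicate block (4 residual degrees of freedom), with Benjamini-Hochberg adjustment at 0.05. The steps were tested on simulated data.

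Named genes are the 12 largest rises and falls among called genes with non-overlapping arrays (small nucleolar, predicted and receptor-family symbols counted only), up to 4 called members of each of 44 lists, or 2 uncalled ones, a fixed set, and the 3 smallest interaction p-values. Some other list members, the genes called without any 1 array and the acute phase genes were named after their values were seen. Members and lists were chosen with earlier results of these data known, the ribosomal, nucleolar and chromatin lists among them. Span came from RefSeq (GRCm38.p6), and a loess curve on span was subtracted from each array for the span-free values. Promoters came from RefSeq. Replicate numbers did not pair arrays (correlations of same-number deviations from -0.217 to 0.179). Alternatives were other filters, normalizations, variance models, the block and leaving out each array.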

Additional observations from a re-analysis of the deposited data

How the results depend on the processing

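Calls in HFD+As against LFD+As numbered 165 without a filter (52 higher, 113 lower), 214 with arrays centred on their medians (67 and 147) and 432 with the span trend removed (49 and 383). Testing every cluster gave 343 higher calls. Leaving out 1 array gave 17 to 1481 calls, 8 to 248 higher and 9 to 1235 lower; the lowest count came without LFD+As replicate 2. Why the filter and the centring moved the counts was not tested. On plain water 13 genes were called without a filter, and 0 to 72 with 1 array left out. Interactions, 0 in the reported fit, numbered 6 among the 40% of genes with the highest means, 12 with an intensity trend, 7 with robust variances, and 0 to 23 with 1 array left out. The replicate block gave 918 calls, 895 of them among the 1227. Of the named genes, none that was called changed sign. Uncalled Cidec turned to -0.041 with the span trend removed and ran from -0.226 to 0.252 with 1 array left out. Cyp7a1 (-0.12) ran from -0.446 to 0.202 and Mt2 from -0.272 to 1.88, and Pparg turned to 0.040 after quantile normalization and 0.098 with the span trend removed. Signal near the lowest mean tested limits the least expressed genes.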
